A study of Mus musculus with 6 samples.

Results

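Blood and lymph vessel endothelium was followed in mouse colon through 10 genes chosen by name, Pecam1, Cdh5, Kdr, Tek, Tie1, Plvap, Vwf, Lyve1, Prox1 and Flt4. They were 10 of the 24517 genes in the count tables, and all 10 were among the 16347 genes kept for testing. Whole colon RNA was sequenced in 3 Nsd2fl/fl and 3 Nsd2ΔIE libraries from mice on a high-fat, high-cholesterol diet (HFCD), labelled as 16 weeks of feeding. Both groups carried floxed alleles of Nsd2, which encodes a histone H3K36 methyltransferase, on a C57BL/6J background, and Nsd2ΔIE mice also carried Villin-Cre. The Villin promoter drives Cre in the intestinal epithelium, so endothelial cells were not the cells targeted for deletion, and the comparison asked how vessel transcripts in the surrounding wall stood when the epithelium lost Nsd2.

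The methods describe male littermates aged 7 to 8 weeks at the start and 18 weeks of diet, against 16 weeks in the labels. Totals ran from 38041832 to 38604680 counts, with 20334 to 21312 genes detected. Nsd2 stood at 47.8, 59.1 and 68.9 CPM (read counts scaled to library size) in the Nsd2fl/fl libraries and at 24.5, 23.1 and 27.5 CPM in those labelled Nsd2ΔIE, a log2 difference of -1.23 (SE 0.159, edgeR adjusted p = 0.302). The groups did not overlap at Nsd2. Xist, the RNA of the inactive X chromosome, had at most 4 counts in an Nsd2fl/fl library and at least 21217 in an Nsd2ΔIE library, while the Y-linked Ddx3y, Eif2s3y, Kdm5d and Uty had at least 868 counts in every Nsd2fl/fl library and at most 1 in any Nsd2ΔIE library. The libraries labelled Nsd2fl/fl thus carried a male pattern and those labelled Nsd2ΔIE a female pattern, so that every comparison below is also one of these patterns and genotype cannot be told apart from them. The labels do not say that the libraries of a group came from separate mice, so p-values measure the spread between these libraries.

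Endothelial cells line every vessel and are held together by junction proteins. Their growth is directed by receptor tyrosine kinases for VEGF and angiopoietin ligands. Lymphatic endothelium branches from venous endothelium under the transcription factor Prox1, and in the colon its vessels drain the wall while blood capillaries supply the crypts.

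No endothelial gene passed the adjusted threshold between Nsd2ΔIE and Nsd2fl/fl colon. Prox1 (log2 difference 0.80) and Tie1 (0.37) were higher in Nsd2ΔIE at the less strict threshold that the study used for single genes, p under 0.05 before adjustment together with a log2 difference beyond 0.32, and no member was lower at it. The other 8 genes, from the VEGF receptor Kdr at -0.02 to the angiopoietin receptor Tek at 0.32, did not pass either threshold. In edgeR's quasi-likelihood test 0 of 10 members had an adjusted p under 0.05, against 5 genes in all (0.0306% of those tested). These 5 were Xist, Ddx3y, Eif2s3y, Kdm5d and Uty, and no other gene passed, Nsd2 included. An unadjusted p under 0.05 was found for 2 of 10 members, against 11.1% of all genes. DESeq2 gave 0 of 10 at an adjusted p under 0.05, against 2.79% of all genes with an adjusted p. The 2 members higher at the study's threshold stand against 8.05% of all genes, and the 0 lower against 2.21%. Levels in the 3 Nsd2ΔIE libraries lay above all 3 Nsd2fl/fl libraries for 4 members (11.4% of all genes) and below them for 0 (7.28%). The fitted difference was above 0 for 9 of 10 members (43.7% of all genes), with a median of 0.13 against -0.04 over all genes tested.

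**Figure D1:**
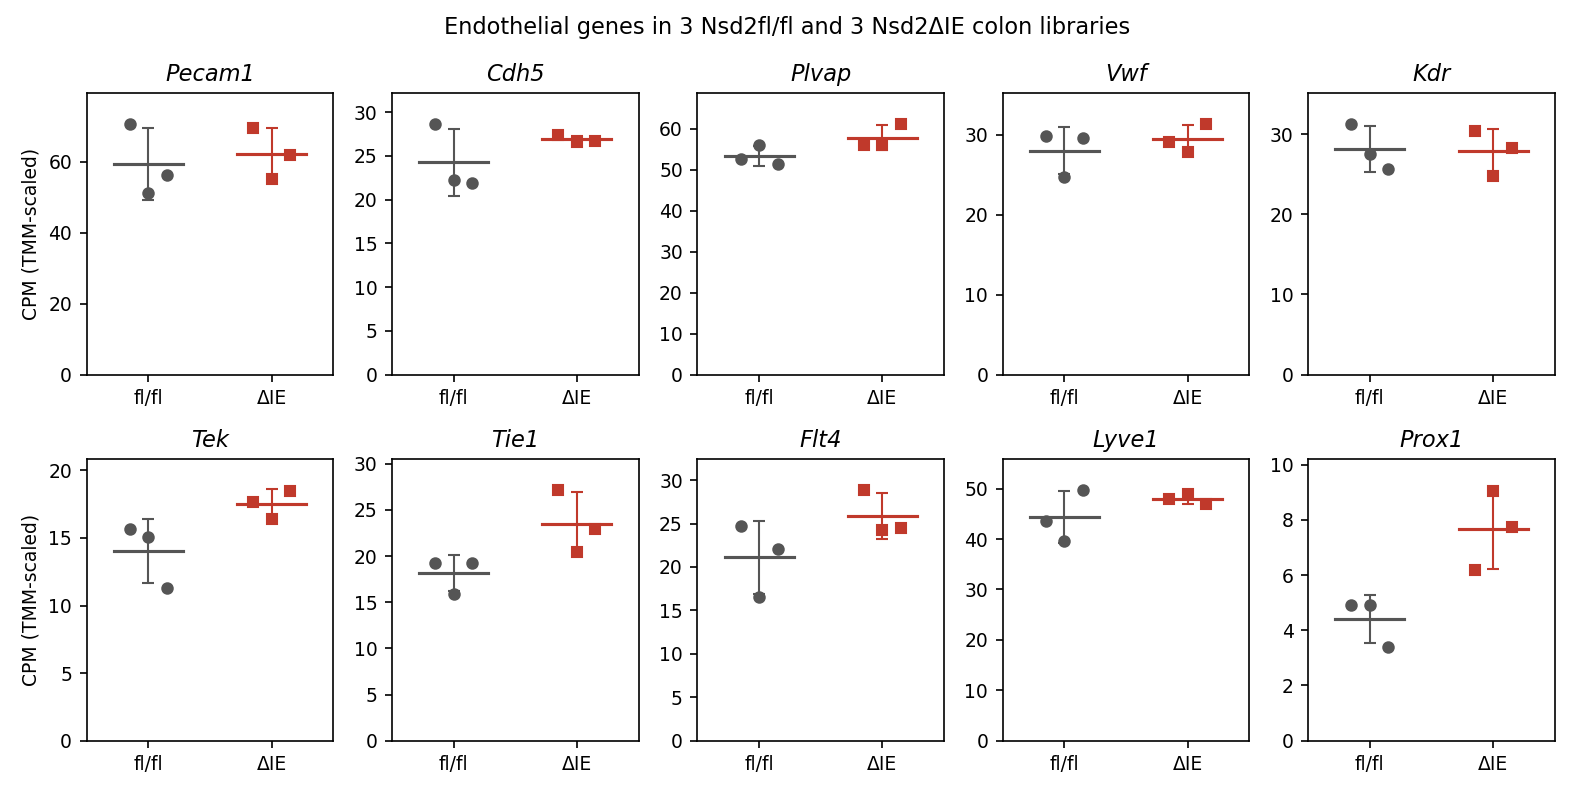
Level of each of the 10 endothelial genes in every library, in CPM on a linear axis from 0. Points are single libraries, with 3 for each genotype, and horizontal lines are group means with bars of 1 SD. Prox1 and Tie1 show 3 Nsd2ΔIE points above the 3 Nsd2fl/fl points, while Pecam1 and Kdr are intermixed.

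Per length, in FPKM (fragments scaled to gene length and library size) over the 6 libraries, the member with the highest level was Plvap, which forms the diaphragms of fenestrated capillaries, with a mean of 26.3 and a range of 22.7 to 31.2 FPKM. Pecam1 followed at 18.4 FPKM (14.2 to 21.5) and Lyve1 at 17.7 FPKM (14.04 to 19.4), and their ranges overlapped. The middle of the order ran from Cdh5 at 6.37 FPKM through Tie1 at 5.41, Flt4 at 4.05, Kdr at 3.58 and Tek at 3.23 to Vwf at 3.23, and each range overlapped the next. Prox1 was lowest at 0.712 FPKM (0.37 to 1.08). Ranges did not overlap between Plvap and Pecam1, Lyve1 and Cdh5, or Vwf and Prox1. All members were present in every library, with 121 counts for Prox1 in the lowest and 2760 for Pecam1 in the highest. Transcripts of genes known from blood and from lymph vessel endothelium were thus measured, while the cells that made them in whole colon were not identified.

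Pecam1 (gene at chr11:106654213-106715281, minus strand, GRCm38) encodes the adhesion molecule CD31 found on endothelium, platelets and leukocytes. Its level was 70.8, 51.3 and 56.4 CPM in Nsd2fl/fl and 69.6, 55.2 and 62.04 CPM in Nsd2ΔIE. The groups overlapped over most of their range, and both replicates numbered 1 were highest. Means were 59.5 ± 10.1 and 62.3 ± 7.24 CPM (SD, n = 3 each), and the log2 difference was 0.07 (95% interval -0.3 to 0.44, edgeR adjusted p = 0.896). Cdh5 (chr8:104101613-104144504, plus strand), the VE-cadherin of endothelial adherens junctions, was at 28.7, 22.2 and 21.96 CPM against 27.4, 26.6 and 26.7 CPM. Nsd2fl/fl replicate 1 was the highest of the 6 and the other two Nsd2fl/fl libraries the lowest. The difference was 0.15 (-0.18 to 0.48, edgeR adjusted p = 0.726).

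Plvap (chr8:71497753-71511806, minus strand) stood at 52.6, 56.1 and 51.4 CPM in Nsd2fl/fl and 56.2, 56.2 and 61.3 CPM in Nsd2ΔIE. The groups met without overlap, Nsd2fl/fl replicate 2 lying just under the lower Nsd2ΔIE libraries. Plvap had the narrowest interval of the members, at a difference of 0.12 (SE 0.096, -0.11 to 0.34, edgeR adjusted p = 0.693). Vwf (chr6:125552948-125686679, plus strand), von Willebrand factor stored in endothelium and platelets, was at 29.8, 24.7 and 29.6 CPM against 29.1, 27.8 and 31.4 CPM, with overlapping groups and a difference of 0.07 (-0.22 to 0.36, edgeR adjusted p = 0.849). The platelet list (Pf4 and others) summed to 7.09 to 8.13 CPM in Nsd2fl/fl and 8.36 to 10.02 CPM in Nsd2ΔIE, without overlap. Most of that sum was Pf4, whose own groups overlapped. None of the 2 tested members of the list passed the study's threshold, against 8.05% higher and 2.21% lower over all genes tested.

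Kdr (chr5:75932827-75979072, minus strand), the main VEGF-A receptor of blood endothelium, was at 31.3, 27.5 and 25.7 CPM in Nsd2fl/fl and 30.4, 24.8 and 28.3 CPM in Nsd2ΔIE. The groups were intermixed. Kdr was the only member with a fitted difference below 0, at -0.02 (-0.33 to 0.3, edgeR adjusted p = 0.968), and its sign turned under several scalings. Flt4 (chr11:49609679-49652739, plus strand), the VEGF-C receptor of lymphatic endothelium, was at 24.7, 16.5 and 22.1 CPM against 28.9, 24.2 and 24.5 CPM. One Nsd2fl/fl library, replicate 1, lay within the Nsd2ΔIE values. The difference was 0.29 (-0.12 to 0.71, edgeR adjusted p = 0.592).

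Tek (chr4:94739086-94874976, plus strand), the angiopoietin receptor TIE2, was at 15.7, 15.1 and 11.3 CPM in Nsd2fl/fl and 17.7, 16.4 and 18.5 CPM in Nsd2ΔIE. The groups did not overlap, and Nsd2fl/fl replicate 3 lay furthest from the rest. Means were 14.04 ± 2.38 and 17.5 ± 1.08 CPM (SD, n = 3 each). The log2 difference was 0.32 (SE 0.163, -0.07 to 0.71), with an edgeR adjusted p of 0.53 (0.0926 before adjustment).

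Tie1 (chr4:118471191-118489849, minus strand), a partner of TIE2 without a high-affinity ligand of its own, was at 19.3, 15.9 and 19.3 CPM in Nsd2fl/fl and 27.2, 20.4 and 22.9 CPM in Nsd2ΔIE. The groups did not overlap, and Nsd2ΔIE replicate 1 was highest. Means were 18.1 ± 1.96 and 23.5 ± 3.43 CPM (SD, n = 3 each). The log2 difference was 0.37 (SE 0.155, 0.01 to 0.74), with an edgeR adjusted p of 0.441 (0.0475 before adjustment). This call before adjustment was lost when any single library other than Nsd2ΔIE replicate 2 was left out. Without Nsd2ΔIE replicate 1 the edgeR difference was 0.26 (adjusted p in 16 alternative fits, 0.309 to 0.99).

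Lyve1 (chr7:110850607-110862953, minus strand), the hyaluronan receptor of lymphatic endothelium and of some tissue macrophages, was at 43.5, 39.6 and 49.8 CPM in Nsd2fl/fl and 47.99, 48.9 and 46.9 CPM in Nsd2ΔIE. The Nsd2ΔIE libraries lay within the range of the Nsd2fl/fl ones. The difference was 0.11 (-0.16 to 0.39, edgeR adjusted p = 0.742).

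Prox1 (chr1:190118035-190170827, minus strand) encodes the homeodomain factor that sets lymphatic identity and is also made by enteroendocrine cells. Its level was 4.91, 4.92 and 3.398 CPM in Nsd2fl/fl (189, 174 and 121 counts) and 6.18, 9.06 and 7.74 CPM in Nsd2ΔIE (245, 359 and 321 counts). The groups did not overlap, with Nsd2fl/fl replicate 3 lowest and Nsd2ΔIE replicate 2 highest. Means were 4.41 ± 0.875 and 7.66 ± 1.44 CPM (SD, n = 3 each). The log2 difference was 0.80 (SE 0.238, 0.23 to 1.36), with an edgeR adjusted p of 0.323 (0.013 before adjustment). Across the 16 alternative fits its adjusted p ran from 0.0829 to 0.99. The call before adjustment was lost when Nsd2ΔIE replicate 2 was left out. The antisense gene Prox1os overlaps Prox1 exons and had at most 1 count in a library. The enteroendocrine list (Chga and others) summed to 276 to 723 CPM in Nsd2fl/fl and 377 to 569.9 CPM in Nsd2ΔIE. Its median log2 difference was 0.01, with single genes from -0.51 (Pyy) to 0.17 (Gcg). At the study's threshold 0 of 5 passed, against 8.05% higher and 2.21% lower over all genes tested. The part of enteroendocrine cells in the Prox1 values was not tested.

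**Figure D2:**
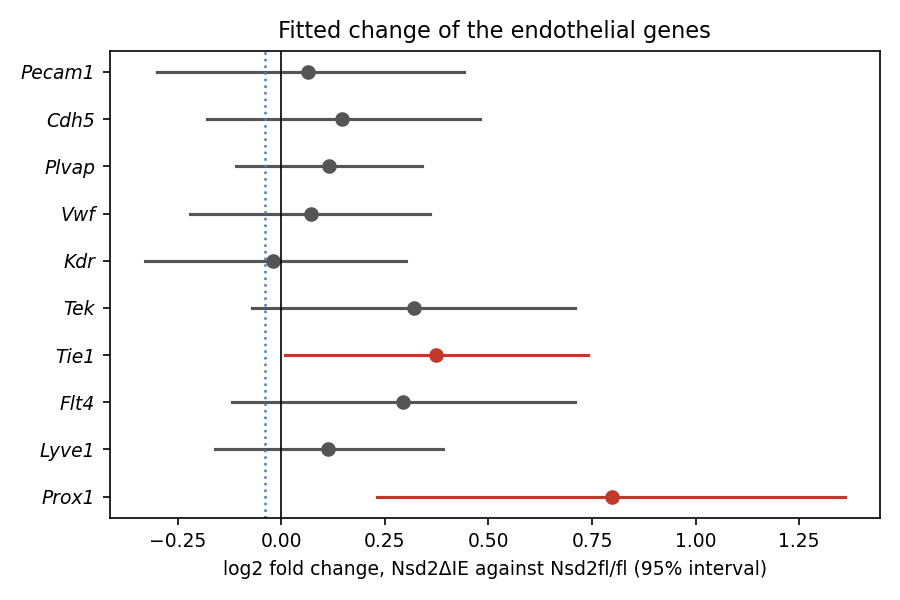
Fitted log2 difference of each endothelial gene, Nsd2ΔIE minus Nsd2fl/fl, on the horizontal axis, with bars for the 95% interval, red for genes past the study's threshold and a dotted line at the median of all genes tested (-0.04). The bars of Prox1 (0.23 to 1.36) and Tie1 (0.01 to 0.74) stay above 0, and those of the other 8 genes span it.

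Ratios within a library, chosen after the values were seen, set the 2 genes against members of similar vessels. Prox1 relative to the mean of Lyve1 and Flt4 was -2.74, -2.38 and -3.29 on the log2 scale in Nsd2fl/fl and -2.59, -1.93 and -2.13 in Nsd2ΔIE. These ratios overlapped, with a difference of 0.59 between means. Tie1 relative to Pecam1 and Cdh5 was -1.23, -1.09 and -0.87 against -0.68, -0.91 and -0.83, again with overlap and a difference of 0.25. In a two-sided exact permutation test each of the 2 ratios gave p = 0.2 (0.2 after adjustment over both), where 3 against 3 libraries cannot go below 0.1, so the ratios are a description.

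RefSeq windows before the transcript start were at hand for 5 members (Prox1, Tek, Tie1, Kdr and Flt4). The sequences shown belong to Prox1 and Tie1, the genes past the study's threshold, and are read 5′ to 3′ on the gene's strand from GRCm38.p6. For Prox1 the window of 250 bases next to the start holds no annotated exon, and for Tie1 the stretch of 38 bases farthest from the start is exon-free. ETS and SOX factors are regulators of endothelial genes, and the letters AGGAAG or CGGAAG (ETS) and AACAAT (SOX) were searched on both strands, with capitals marking a match.
Prox1, chr1:190170828-190171077, minus strand: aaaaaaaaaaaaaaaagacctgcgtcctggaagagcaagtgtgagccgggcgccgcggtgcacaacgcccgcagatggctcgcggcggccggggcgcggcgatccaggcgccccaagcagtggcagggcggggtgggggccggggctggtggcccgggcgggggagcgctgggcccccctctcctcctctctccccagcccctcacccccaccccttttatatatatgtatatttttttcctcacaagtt
Tie1, chr4:118490062-118490099, minus strand: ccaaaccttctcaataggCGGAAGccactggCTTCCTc
The Tie1 stretch held an ETS match on each strand, starting 232 and 219 bases before the start, and CTTCCT is AGGAAG read on the other strand. The Prox1 window held neither ETS nor SOX letters. ETS letters occurred in 1 of the 5 members with a window and in 39.2% of 32851 windows of that length, and SOX letters in 1 of 5 (Tek, 63 bases before its start) and in 9.42%. A match is a match of letters, and binding was not measured.

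Other genes that endothelial cells share were read from a longer list. Of 22 pan-endothelial genes, 3 were higher in Nsd2ΔIE at the study's threshold, 0 were lower and 9 had groups without overlap, all 9 higher (8.05%, 2.21% and, for groups without overlap and higher, 11.4% of all genes tested), with a median log2 difference of 0.24. Erg, an ETS factor of endothelium, was at 5.04, 4.097 and 4.998 CPM in Nsd2fl/fl and 6.31, 6.66 and 6.53 CPM in Nsd2ΔIE, a difference of 0.46 (SE 0.175, edgeR adjusted p = 0.414). Cd34, a sialomucin of capillaries and of stromal fibroblasts, was at 52.8, 35.01 and 45.9 CPM against 60.1, 67.7 and 62.6 CPM (0.51, SE 0.162, edgeR adjusted p = 0.348). Ptprb, the phosphatase that dephosphorylates TIE2, was at 37.99, 30.4 and 32.7 CPM against 40.6, 44.4 and 46.2 CPM (0.38, SE 0.122, edgeR adjusted p = 0.355). For these 3 genes the groups did not overlap, and none passed the adjusted threshold.

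**Figure D3:**
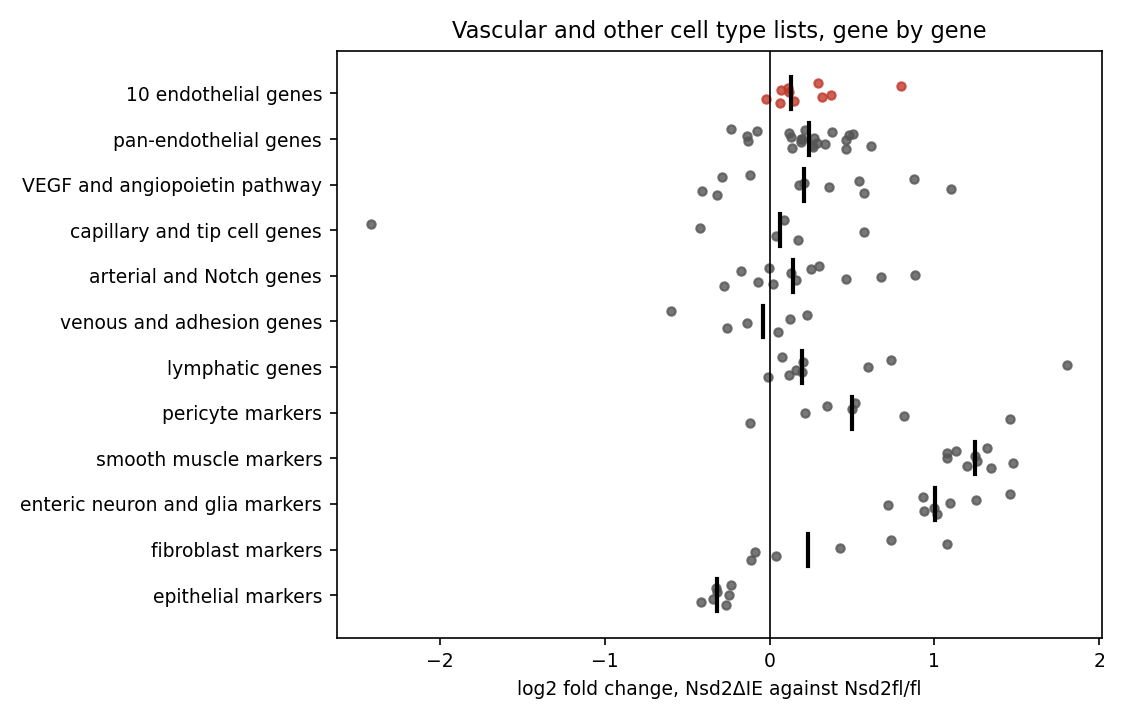
Log2 differences, Nsd2ΔIE minus Nsd2fl/fl, of every tested gene of the vascular lists and of 5 marker lists of other cell types, with 1 point a gene and the median of each list as a line. Medians of the endothelial members (0.13) and pan-endothelial genes (0.24) lie near 0, while those of enteric neuron and glia markers (1.01) and every smooth muscle marker (1.07 to 1.48) lie farther above it.

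Among 11 ligands and receptors of the VEGF and angiopoietin pathway, 3 were higher at the study's threshold and 0 lower (8.05% and 2.21% of all genes tested), with a median of 0.21. Vegfb was at 15.4, 14.9 and 12.97 CPM in Nsd2fl/fl and 17.96, 21.4 and 25.1 CPM in Nsd2ΔIE, a log2 difference of 0.57 (SE 0.162, edgeR adjusted p = 0.312). Vegfd, an X-linked ligand of FLT4, was at 1.77, 1.44 and 0.842 CPM against 2.699, 2.65 and 3.35 CPM (1.1, SE 0.336, edgeR adjusted p = 0.328), from 30 to 139 counts a library. Angpt1, the activating ligand of TIE2, was at 2.03, 1.33 and 1.99 CPM against 3.103, 3.36 and 3.35 CPM (0.87, SE 0.258, edgeR adjusted p = 0.321). The groups of these 3 ligands did not overlap. Vegfa, a ligand of KDR, had the highest mean FPKM of the list over the 6 libraries, though Vegfb had the higher mean over the Nsd2ΔIE libraries alone. Vegfa was at 84.3, 80.2 and 63.7 CPM against 69.001, 49.8 and 64.04 CPM, with overlapping groups and a difference of -0.32 (SE 0.167, edgeR adjusted p = 0.539).

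**Figure D4:**
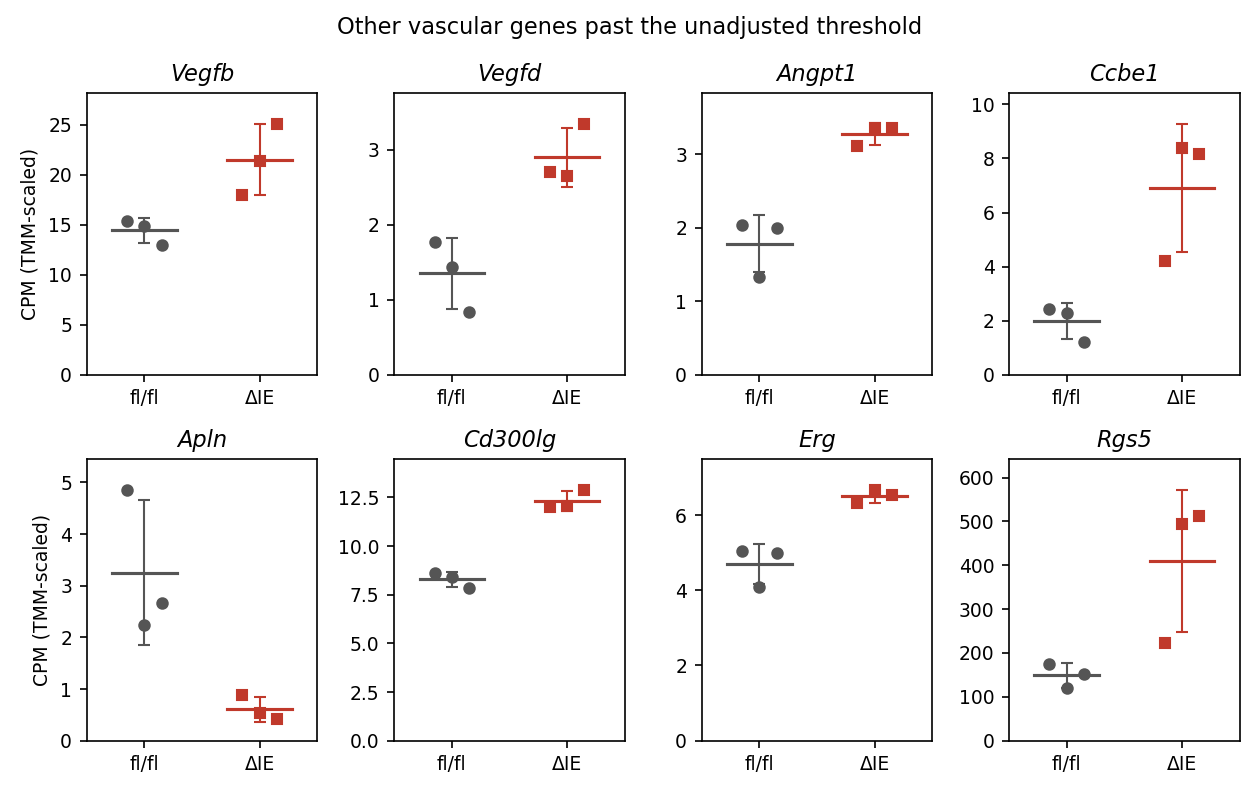
Levels, in CPM on linear axes from 0, of 8 vascular genes outside the 10 members (Vegfb, Vegfd, Angpt1, Ccbe1, Apln, Cd300lg, Erg and Rgs5) in each library, with group means and bars of 1 SD over 3 libraries. Cd300lg, Angpt1 and Ccbe1 have every Nsd2ΔIE point above the Nsd2fl/fl points, and Apln has every Nsd2ΔIE point below them.

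By vessel type, 1 of 6 capillary and tip cell genes was higher at the study's threshold and 1 lower (8.05% and 2.21% of all genes tested). Cd300lg, a mucin-like receptor of capillaries, was at 8.596, 8.42 and 7.86 CPM in Nsd2fl/fl and 12.03, 12.04 and 12.9 CPM in Nsd2ΔIE, a log2 difference of 0.57 (SE 0.136, edgeR adjusted p = 0.302). Apln, the X-linked gene of the peptide apelin made by tip cells and also by other cells, was at 4.86, 2.23 and 2.67 CPM against 0.883, 0.53 and 0.41 CPM, from 17 to 187 counts a library (-2.42, SE 0.454, edgeR adjusted p = 0.302). Neither pair of groups overlapped, and DESeq2 put both under its adjusted threshold, at 0.0139 for Cd300lg and 0.000356 for Apln, where DESeq2 put 2.79% of all genes with an adjusted p. Rgcc, the most abundant gene of the list by FPKM, had overlapping groups and a difference of 0.04 (SE 0.34, edgeR adjusted p = 0.976).

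Of 12 arterial and Notch genes, 2 were higher at the study's threshold and 0 lower (8.05% and 2.21% of all genes tested), with a median of 0.14. Hey1, a Notch target factor, was at 2.104, 2.46 and 2.05 CPM in Nsd2fl/fl and 3.83, 3.58 and 3.13 CPM in Nsd2ΔIE (0.67, SE 0.22, edgeR adjusted p = 0.358). Jag2, a Notch ligand, was at 6.21, 8.42 and 5.897 CPM against 9.51, 9.74 and 9.09 CPM (0.47, SE 0.188, edgeR adjusted p = 0.432). Both had groups without overlap, and Efnb2, the arterial ephrin and most abundant of the list by FPKM, differed by -0.17 (SE 0.145, edgeR adjusted p = 0.695). Of 6 tested venous and adhesion genes, 0 passed the study's threshold in either direction, with a median of -0.04. Ephb4, the venous receptor for Efnb2 and most abundant of them by FPKM, differed by 0.05 (SE 0.123, edgeR adjusted p = 0.895). Its mean of 23.8 FPKM over the 6 libraries lay above the 18.4 of Pecam1. The cells that made Ephb4 and Efnb2 transcripts in whole colon were not identified.

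Of 9 further lymphatic genes, 2 were higher at the study's threshold and 0 lower (8.05% and 2.21% of all genes tested), with a median of 0.20. Ccbe1, a secreted protein needed for VEGF-C processing, was at 2.44, 2.29 and 1.21 CPM in Nsd2fl/fl and 4.19, 8.402 and 8.17 CPM in Nsd2ΔIE (1.8, SE 0.389, edgeR adjusted p = 0.302, DESeq2 adjusted p = 0.00227), from 43 to 339 counts. Itga9, an integrin of lymphatic valves and of smooth muscle, was at 33.6, 17.01 and 30.02 CPM against 39.1, 38.9 and 56.2 CPM (0.74, SE 0.279, edgeR adjusted p = 0.414). Both had groups without overlap. Ccl21a, the chemokine of lymphatic endothelium with the highest FPKM of the list, was at 95.1, 74.97 and 106 CPM against 126, 90.1 and 84.4 CPM, with overlapping groups and a difference of 0.12 (SE 0.198, edgeR adjusted p = 0.843). Over the 6 endothelial and ligand lists together, 11 of 66 tested genes were higher at the study's threshold and 1 lower (8.05% and 2.21% of all genes tested), 0 had an edgeR adjusted p under 0.05, and the median was 0.18.

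Summed over the 10 members, endothelial transcripts came to 321, 274 and 291 CPM in Nsd2fl/fl and 341, 309.5 and 330.2 CPM in Nsd2ΔIE. Nsd2fl/fl replicate 1 lay above Nsd2ΔIE replicate 2, so the sums overlapped. Sums over the 22 pan-endothelial genes did not overlap, at 289 to 325 CPM in Nsd2fl/fl and 347 to 359 CPM in Nsd2ΔIE, nor did those over the 9 further lymphatic genes, at 175 to 230.4 CPM and 238 to 272 CPM. Groups without overlap were seen for 2 of these 9 lymphatic genes, Ccbe1 and Itga9, both higher (11.4% of all genes tested). Itga9 is also an integrin of smooth muscle. The fitted difference was above 0 for 8 of the 9 (43.7% of all genes tested), with a median of 0.20 against -0.04. Ccl21a, the largest part of the lymphatic sum, overlapped, so that sum by itself does not describe every gene of the list. In whole tissue, a difference in the number of cells of a type and a difference in RNA per cell cannot be told apart. Sums for muscle and nerve markers stood farther apart, and so did that for pericyte markers, mostly through Rgs5. For the counts that follow, 8.05% of all genes tested were higher at the study's threshold and 2.21% lower. Smooth muscle markers, of which 8 of 9 were higher at the study's threshold, summed to 1444 to 4131 CPM in Nsd2fl/fl and 5135 to 10996 CPM in Nsd2ΔIE. Enteric neuron and glia markers, 8 of 8 higher, summed to 46.9 to 77.1 CPM and 101 to 129.7 CPM. Pericyte markers, 3 of 7 higher, summed to 224 to 305 CPM and 353 to 653 CPM, mostly Rgs5 at 176, 120.1 and 151 CPM against 222, 495 and 512 CPM (1.46, SE 0.335, edgeR adjusted p = 0.302, DESeq2 adjusted p = 0.00264). Cspg4 (0.82, SE 0.254, edgeR adjusted p = 0.333) and Abcc9 (0.5, SE 0.184, edgeR adjusted p = 0.402) were the other pericyte markers past the study's threshold. Kcnj8 (0.22) had groups without overlap but did not pass it, while Pdgfrb (-0.12), Notch3 (0.35) and Higd1b (0.52) had overlapping groups. Fibroblast markers, 3 of 6 higher, summed to 831 to 920.04 CPM and 969.9 to 1164 CPM. Epithelial markers, 0 of 7 past the study's threshold and 7 of 7 with a fitted difference below 0, summed to 9361 to 15086 CPM and 8845 to 10439 CPM. Leukocyte markers, 1 of 7 higher (Cd163, 0.91), overlapped in sum at 151 to 219 CPM and 187 to 203 CPM. Adipocyte markers, 1 of 5 tested higher (Fabp4, 1.11, a lipid carrier of adipocytes and capillary endothelium) and with a median of 1.11, overlapped in sum at 59.8 to 117 CPM and 84.4 to 154 CPM, with Adipoq, Plin1 and Lep at 0 in some libraries. Cd163 and the single adipocyte genes are named after their values were seen. The part of these cell types in the endothelial values was not tested.

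**Figure D5:**
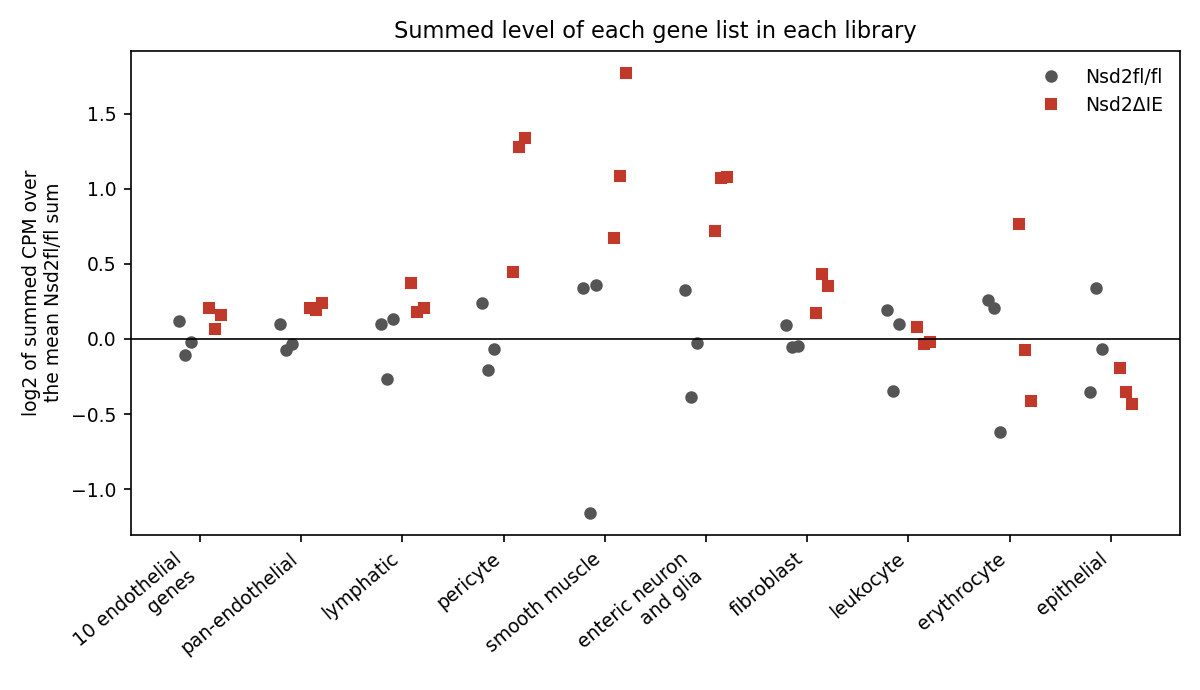
Summed CPM of the 10 endothelial genes and of other lists in each library (1 point a library), drawn as log2 of the sum over the mean Nsd2fl/fl sum of that list. The endothelial points, from sums of 274 to 341 CPM, lie close to 0, while the smooth muscle points, from sums of 1444 to 10996 CPM, spread widely with the Nsd2ΔIE libraries on top.

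As a mean of standardised log2 CPM over the 10 members, the libraries stood at 0.21, -0.98 and -0.66 for Nsd2fl/fl and at 0.72, 0.07 and 0.64 for Nsd2ΔIE. Nsd2fl/fl replicate 2 was lowest, and it also had the lowest smooth muscle, pericyte and enteric sums. The genes outside the list that followed this mean most closely over the 6 libraries were Afap1l1 (Pearson r 0.997), Slitrk5 (0.996), Evl (0.993), Itpkb (0.993) and Sp6 (0.991), a description of libraries that share scaling and tissue make-up.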

How the data were processed

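Whole colon RNA was sequenced in 6 libraries, and the deposited tables hold whole-number counts and FPKM values per gene and library. Per the labels, the authors used fastp, HISAT2, HTSeq, R 3.2.0 and mm10; annotation and strand setting are not given in the sources used here. The FPKM values, computed by the authors from counts and gene length, served for levels between genes and, as log2(FPKM + 1) or log2(FPKM + 0.1), for alternatives. Coordinates are RefSeq's for GRCm38.p6.

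Counts of 16347 genes kept by filterByExpr were tested with edgeR 4.0.16 (TMM factors, quasi-likelihood F test, R 4.3.3), and p-values were adjusted by Benjamini-Hochberg over all genes tested. CPM values are TMM-scaled. Standard errors and intervals come from the fit. The common dispersion was 0.0967. Code was tested on simulated data. Alternatives were DESeq2 1.42.0, limma-voom (limma 3.58.1), other scalings and filters, a covariate, a replicate block and leaving out each library.

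The members and lists were chosen with earlier results of these data known. From vascular lists a gene is named where its unadjusted p was under 0.05 or as the list's most abundant gene, at most 5 a list. The pericyte list is named in full. The 5 genes most like the members were instead picked by the highest Pearson correlation with the members' mean standardised log2 CPM. Marker sums leave out Ackr1 and Gp9, which were not analysed here.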

Additional observations from a re-analysis of the deposited data

How the results depend on the processing

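Across 16 alternatives no member passed an adjusted p of 0.05. The 2 members higher at the study's threshold became 1 with limma-voom, without the filter on low counts, at a fold over 1.5 and in each leave-one-out fit (1 to 1), and 3 with library totals alone or with the sign of the first principal component as a covariate. Prox1 kept its direction in 16 of 16 alternatives (0.37 to 0.94) with an unadjusted p under 0.05 in 15, and Tie1 in 16 of 16 (0.26 to 0.50) with 9. The median of 0.13 was 0.26 with library totals alone and with log2(FPKM + 0.1), 0.24 with log2(FPKM + 1), and 0.11 to 0.24 in leave-one-out fits, highest without Nsd2fl/fl replicate 1; those 3 scalings moved the median of all genes by 0.127, 0.135 and 0.102. Kdr, at -0.02, turned to 0.02 with the covariate, 0.10 with library totals, 0.11 and 0.084 with log2(FPKM + 0.1) and log2(FPKM + 1), and 0.049 with upper-quartile factors, and ran from -0.083 to 0.061 in leave-one-out fits (0.058 without Nsd2ΔIE replicate 2). Pecam1 ran from -0.034 to 0.21 (-0.018 without Nsd2ΔIE replicate 1), and Vwf reached -0.014 without Nsd2fl/fl replicate 2. Same-numbered libraries deviated with correlations of 0.501, 0.643 and -0.166, so the numbers were not taken as pairs; with a replicate block, 2 members stayed higher, the median was 0.14, and adjusted p was 0.311 for Prox1 and 0.326 for Tie1. Causes were not tested. With 3 libraries a group, each difference is known no more closely than its printed 95% interval.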

Other observations

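Blood in the vessels was followed through red cell markers, which belong to no comparison above. The erythrocyte list summed to 18.8 to 34.5 CPM in Nsd2fl/fl and 21.7 to 48.99 CPM in Nsd2ΔIE, with overlap of the groups. In edgeR 0 of 5 genes passed the study's threshold, against 8.05% higher and 2.21% lower over all genes tested.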
